A study of Mus musculus with 10 samples.

Results

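Single female mouse morulae labelled Jarid2 knockout were compared with wild-type ones, with 6 libraries of 1 embryo each out of the 10 libraries of the series. They are the libraries that the labels describe as single female morula embryos, 3 of them wild type (replicates 1, 2 and 3) and 3 Jarid2 knockout (replicates 1, 3 and 4). The other 4 libraries are pools of about 20 morulae with no sex in their titles, 2 labelled control and 2 Jarid2 knockout. Embryos of both genotypes had the strain label BDF1 x PWK, had been freed of the zona pellucida and gave polyadenylated RNA, which was copied with SMART-Seq v4, built into Nextera XT libraries and read in 75 bases from 1 end. Which exons were deleted, whether the oocyte also lacked the gene, which litters the embryos came from and how sex was determined are not stated in the labels used here. Values of single embryos are given below in the order wild-type 1, 2 and 3, then knockout 1, 3 and 4.

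Jarid2 is a DNA-binding cofactor of Polycomb repressive complex PRC2, which methylates histone H3 on lysine 27 (H3K27me3) and keeps developmental genes silent. In the mouse embryo, H3K27me3 inherited from the oocyte also marks a set of imprinted genes and the maternal copy of Xist. The morula is the stage at which the cells compact through E-cadherin, polarise, seal their outer layer with tight junctions and begin to pump fluid for the blastocyst cavity.

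The libraries held 14830332 to 18696312 counts and between 16364 and 18311 genes with a count. All 16 markers of the morula fixed for the check were detected, with summed levels of 6405 to 7259 CPM (counts divided by the library total and scaled to a common size) in wild types and 5370 to 6964 CPM in knockouts. The 15 markers of cumulus and granulosa cells summed to 5.06 to 9.91 CPM against 3.15 to 5.99 CPM, with 8 of them at 0 in all 6 libraries. The 10 sperm markers summed to 0.345 to 2.97 CPM against 2.16 to 7.49 CPM, the 8 blood cell markers to 1.55 to 3.71 against 1.98 to 4.48 CPM, and the 10 oviduct markers to 0.288 to 5.80 against 0.833 to 2.67 CPM. Of 4 Y-linked genes, 3 were at 0 in all 6 libraries and their sum reached 0.167 CPM, in knockout 1. The 12 markers of oocytes summed to 51.9 to 176 CPM against 48.4 to 122 CPM, and the part of these in the results below was not tested.

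On the first principal component of log2(CPM + 1), with 43.0% of the variance, the wild types lay at 64.7, 17.8 and 33.8 and the knockouts at -61.0, -10.7 and -44.6. Wild-type 2 and knockout 3 were the nearest pair of unlike genotype. Across genes, which are not independent replicates, these 2 correlated at 0.955, while wild-type 2 correlated with the other wild types at 0.943 and 0.953 and knockout 3 with the other knockouts at 0.948 and 0.958. The labels give no batch by which the embryos could be divided and do not say whether embryos shared a litter, so p-values measure the spread between these embryos.

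Of 13830 genes tested by edgeR's quasi-likelihood F test, 605 (4.37%) passed a Benjamini-Hochberg adjusted p of 5%, 161 higher (1.16%) and 444 lower (3.21%) in knockouts; DESeq2 called 1957 (14.2%), 951 higher (6.88%) and 1006 lower (7.27%). Before adjustment 3131 genes (22.6%) had a p under 0.05, 1444 higher (10.4%) and 1687 lower (12.2%). The share of calls that were higher was 26.6%, and 41.6% under upper-quartile scaling. "Rose" and "fell" below are used only of genes past that threshold in edgeR. In all 605 the 3 knockouts lay to one side of the 3 wild types, which held for 27.9% of all genes tested, 12.6% above and 15.3% below. The number of calls depended on single embryos. It was 41 without wild-type 1, 520 without wild-type 2, 66 without knockout 1 and 1316 without knockout 3. Without wild-type 3 or knockout 4 it was 1, and that gene was St6galnac4 each time. All 605 kept their direction in each of these 6 fits, and 604 kept an unadjusted p under 0.05 in all of them. Therefore each call described below, other than that of St6galnac4, rests on wild-type 3 and knockout 4 both being present.

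**Figure D1:**
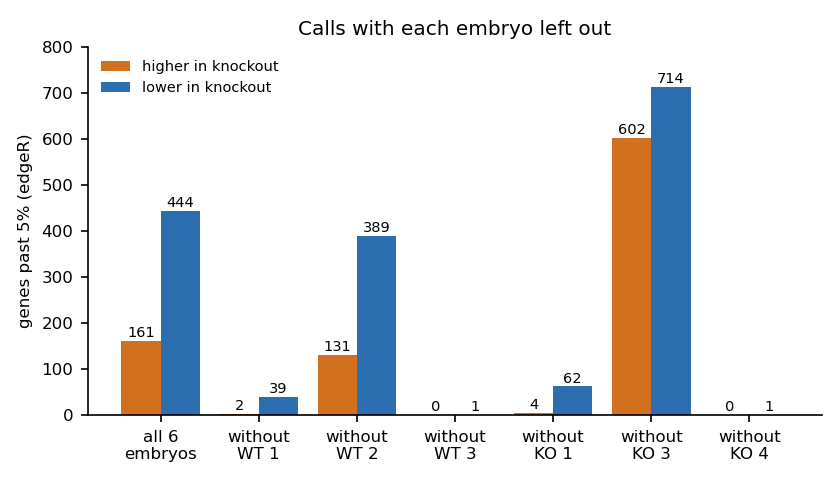
Genes past 5% (edgeR) with all 6 embryos and with each embryo left out in turn, higher and lower in knockouts shown as separate bars (WT, wild type; KO, knockout). The count was 161 higher and 444 lower with all 6, 602 and 714 without knockout 3, and 0 and 1 without wild-type 3 or without knockout 4.

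Jarid2 itself (chromosome 13, 44730774 to 44921643, GRCm38.p6) had 580.3, 686 and 776 CPM in wild types and 156, 319 and 61.3 CPM in knockouts. The groups did not overlap, and among the knockouts the level was highest in knockout 3 and lowest in knockout 4. The log2 change was -1.92 (SE 0.43, edgeR adjusted p = 0.0342). The call was lost without wild-type 1 (adjusted p = 0.0989), wild-type 3 (0.109), knockout 1 (0.127) or knockout 4 (0.0735). Knockout 3 kept 319 CPM, so counts of the gene were lower and not absent in the libraries labelled knockout. Counts cover the whole gene and can include exons outside the deletion. Its PRC2 partners did not pass: the methyltransferase gene Ezh2 had 151, 142 and 198 CPM in wild types and 179, 190.1 and 142 CPM in knockouts and changed by 0.10 (SE 0.22), Eed, which reads the mark, by 0.66 (SE 0.26) and Suz12, the scaffold subunit, by -0.51 (SE 0.23).

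Many genes of proteins that sit in the plasma membrane and hold the outer cells together fell in knockouts. In RNA of a whole embryo, fewer cells of a type and less RNA per cell cannot be told apart. Of 20 tight junction genes tested, 8 fell and 14 had all knockouts below all wild types, with a median log2 change of -1.11 where the median of all genes was -0.03. F11r, which encodes the junctional adhesion molecule JAM-A, had 707, 672 and 694 CPM in wild types and 299, 207 and 243 CPM in knockouts. Cldn7 (claudin) had 1115, 888 and 889 CPM in wild types and 379, 409 and 368 CPM in knockouts. Ocln, the occludin gene, had 71.2, 71.7 and 57.4 CPM in wild types and 16.7, 14.2 and 22.4 CPM in knockouts. In each of the 3 genes the highest knockout lay below the lowest wild type, and the changes were -1.41 (SE 0.21), -1.28 (SE 0.17) and -1.85 (SE 0.29), with adjusted p from 0.012 to 0.0136. Cldn6 had 169, 190.2 and 190.2 CPM against 64.7, 70.8 and 74.5 CPM and changed by -1.34 (SE 0.20).

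Of 17 adherens junction and desmosome genes, 6 fell (median -0.99). Epcam, the epithelial cell adhesion molecule, had 2148, 1606 and 2407 CPM in wild types and 436, 772 and 695 CPM in knockouts, a change of -1.67 (SE 0.22). Cdh1, the E-cadherin gene on which compaction depends, had 812, 405 and 608 CPM in wild types and 124, 248 and 109 CPM in knockouts. Its knockout values were low throughout, with knockout 3 the highest of them, and it changed by -1.91 (SE 0.32, adjusted p = 0.018). Nectin2, a nectin that nucleates adherens junctions, had 165, 109 and 149 CPM against 41.2, 54.7 and 31.7 CPM (-1.70, SE 0.26). The desmosomal cadherin gene Dsc2 had 60.1, 11.3 and 9.32 CPM in wild types and 0.222, 1.02 and 1.72 CPM in knockouts, with wild-type 1 far above the others (-4.72, SE 0.88).

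The pumps and channels that move fluid into the cavity showed the same direction, with 4 of 14 genes lower (median -0.86). Aqp3, an aquaporin water channel, had 510.4, 411 and 624 CPM in wild types and 224, 184 and 163 CPM in knockouts and changed by -1.39 (SE 0.23). Atp1b1, the beta subunit gene of the sodium pump, had 137, 139 and 139 CPM against 46.2, 85.5 and 76.0 CPM and fell by 0.97 (SE 0.24) on the log2 scale. Atp1b1 overlaps Nme7, whose counts came to 12.5% of its own, and the labels do not state the strand used in counting.

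Nutrient uptake genes had the highest share of calls among the surface lists after the integrins. Of 25 amino acid and glucose transporter genes 11 fell, and the median was -1.23. Slc2a3, the glucose transporter GLUT3, had 647, 368 and 797 CPM in wild types and 74.3, 154 and 123 CPM in knockouts, a change of -2.35 (SE 0.32). Slc6a6, the taurine transporter gene, had 217, 110.3 and 183 CPM against 39.3, 58.6 and 45.8 CPM (-1.80, SE 0.28), and Slc1a1, a glutamate and aspartate transporter gene, had 510.1, 404 and 539 CPM against 217, 229 and 177 CPM (-1.18, SE 0.20). The amino acid transporter genes Slc38a4 and Slc38a1, which also stand in the list of genes imprinted through H3K27me3, changed by -1.52 (SE 0.24) and -1.37 (SE 0.23). The other 23 tested genes of that imprinted list were not called. Of the 25, 5 had all knockouts below all wild types, beside 15.3% of all genes, and DESeq2 called 5 lower, beside 7.27%. At an unadjusted edgeR p under 0.05, 0 were higher and 6 lower (24%, against 22.6% of all genes in either direction).

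Of 19 integrin and matrix receptor genes 9 fell (median -1.08). Itgb1, the beta subunit shared by many integrins, had 339, 243 and 269 CPM in wild types and 104, 112 and 118 CPM in knockouts (-1.31, SE 0.20). The tetraspanin genes Cd9, Cd63 and Cd151 fell, as did Bsg (basigin), which escorts lactate transporters to the membrane, and the heparan sulfate proteoglycan gene Sdc4. Cd63 had 5527, 4468 and 5427 CPM in wild types and 2977, 2368 and 2365 CPM in knockouts (-0.95, SE 0.18). Of 33 genes of growth factor receptors and ligands 10 fell (median -1.06), among them the receptor kinase gene Tyro3 (-2.70, SE 0.62), the protease-activated receptor gene F2rl1 (-2.39, SE 0.43) and Mfge8, whose secreted product bridges phosphatidylserine to integrins (229.5, 399.8 and 387 CPM in wild types and 87.8, 25.8 and 37.2 CPM in knockouts; -2.67, SE 0.45). Fgfr1 and Erbb2, picked after their values were seen, had 179, 80.5 and 144 CPM against 18.3, 64.6 and 23.2 CPM and 71.6, 46.3 and 56.2 CPM against 10.4, 27.9 and 7.19 CPM, and both passed. Of 19 endocytic receptor and lipoprotein genes 4 fell (median -0.53): Lrp2, the large endocytic receptor megalin (-1.24, SE 0.18), its chaperone Lrpap1 (-0.77, SE 0.18), Scarb2 (-1.22, SE 0.21) and Apoe, which ranged widely with 867, 1397 and 2170.5 CPM in wild types and 156, 544 and 498 CPM in knockouts.

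In all 8 lists of surface genes together, with the endocytic and the polarity and Hippo lists, 52 of 179 entries fell and 0 rose by edgeR. At an unadjusted p under 0.05, 90 were lower and 3 higher, and DESeq2 called 75 lower and 3 higher. Among all genes tested 3.21% fell, 12.2% were lower before adjustment and DESeq2 called 7.27% lower. The lists here and below were chosen with earlier results of these data known, so such totals are a description and no independent support. The 32 polarity and Hippo genes gave 0 calls in edgeR. Per embryo the median deviation of the tight junction genes from the mean of the 6 was 0.68, 0.49 and 0.53 in wild types and -0.65, -0.17 and -0.61 in knockouts. For adherens junction genes it was 0.75, 0.46 and 0.39 against -0.62, 0.01 and -0.61, so knockout 3 was the closest of the knockouts to the wild types in both lists. The largest gap to the wild types in the transporter list was that of knockout 4, at -1.04.

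**Figure D2:**
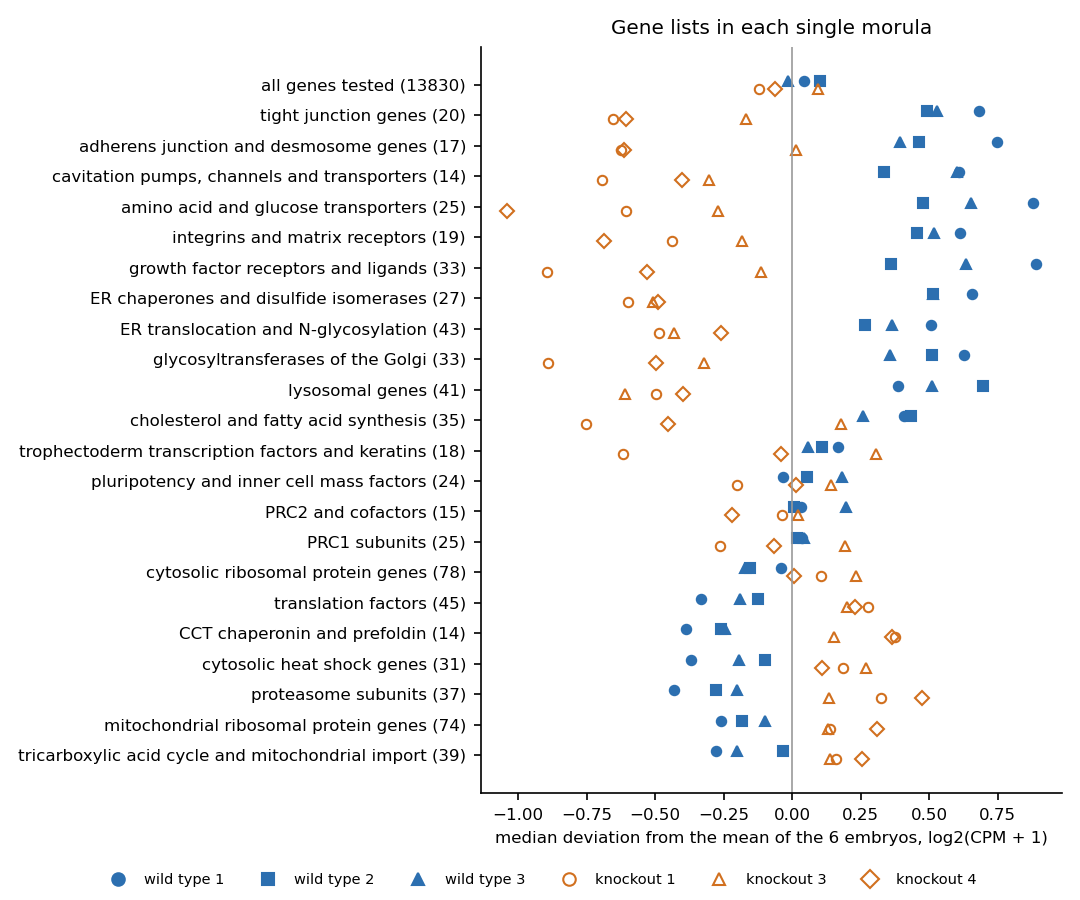
Median deviation of each list's genes from their mean over the 6 embryos, on log2(CPM + 1), for wild types (filled) and knockouts (open), with the number of tested genes in brackets. Wild types lie to the right of knockouts in the rows from tight junction to cholesterol and fatty acid synthesis genes and to the left in the rows from cytosolic ribosomal protein to tricarboxylic acid cycle genes, while all genes together span -0.12 to 0.10.

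The endoplasmic reticulum (ER), where membrane and secreted proteins are folded and glycosylated, held the densest set of calls. Of 27 genes of ER chaperones and disulfide isomerases 16 fell, 23 had all knockouts below all wild types, and the median was -1.07. Hspa5, the chaperone BiP, had 3343, 2817 and 2761 CPM in wild types and 1363, 1294 and 1251 CPM in knockouts, and Calr, the lectin chaperone calreticulin, had 3138, 2327 and 2607 CPM in wild types and 927, 1142 and 1173 CPM in knockouts. Within each genotype the values lay close together, and the genotypes did not overlap. Hspa5 changed by -1.14 (SE 0.15) and Calr by -1.27 (SE 0.17), both with an adjusted p of 0.012. P4hb, a protein disulfide isomerase, had 1157, 931 and 848 CPM against 321, 391 and 366 CPM (-1.40, SE 0.17), and Pdia4 had 461, 508 and 425 CPM against 165, 164 and 203 CPM (-1.34, SE 0.19). Hsp90b1, the ER member of the Hsp90 family, fell by 1.05 (SE 0.19).

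Hspa5 and several other genes of this list share a known promoter element, the ER stress response element (ERSE), which is bound by NF-Y and by ATF6. Its letters, CCAAT and then CCACG after a gap of 9 bases of any kind, were searched on both strands from 250 bases before to 50 after each start in RefSeq's promoters for GRCm38.p6. They were found in 37 of 27025 genes (0.137%), in 22 of 10254 tested genes with an entry (0.215%) and in 7 of 22 genes of the list with an entry. These 7 are 5 of 14 that fell and 2 of 8 that did not pass. The sites of all 7 are shown, because they place the chaperone genes that fell beside the whole set that holds the element, with 30 bases to each side, 5′ to 3′ on the gene's strand, with the fixed letters of the element in capitals (CGTGG and ATTGG where it lies on the other strand).
Hspa5, chr2:34771995-34772073, plus strand: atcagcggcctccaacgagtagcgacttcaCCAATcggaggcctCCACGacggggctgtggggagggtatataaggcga
Hsp90b1, chr10:86705608-86705686, minus strand: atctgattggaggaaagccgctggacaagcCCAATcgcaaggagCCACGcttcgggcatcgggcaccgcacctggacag
Hsp90b1, chr10:86705503-86705581, minus strand: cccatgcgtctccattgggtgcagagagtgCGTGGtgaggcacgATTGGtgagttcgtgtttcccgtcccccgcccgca
Calr, chr8:84847045-84847123, minus strand: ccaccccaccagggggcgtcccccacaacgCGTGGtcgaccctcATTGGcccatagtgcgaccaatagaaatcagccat
Canx, chr11:50325770-50325848, minus strand: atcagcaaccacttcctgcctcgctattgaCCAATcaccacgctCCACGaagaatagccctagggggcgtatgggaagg
Pdia6, chr12:17266461-17266539, plus strand: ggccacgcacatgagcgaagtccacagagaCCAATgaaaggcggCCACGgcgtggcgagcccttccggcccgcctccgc
Dnajc3, chr14:118937797-118937875, plus strand: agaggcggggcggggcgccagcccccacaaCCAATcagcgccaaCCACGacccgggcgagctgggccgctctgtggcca
Creld2, chr15:88819490-88819568, plus strand: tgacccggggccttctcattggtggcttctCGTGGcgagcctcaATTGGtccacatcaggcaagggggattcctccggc
The last 2 sites are those of the genes that did not pass, Dnajc3 and Creld2. Hsp90b1 held 2 sites, and the element began 65 (Hspa5) to 212 (Hsp90b1) bases before the start. Dnajc3 had 133, 181 and 201 CPM against 89.7, 131 and 94.1 CPM (-0.68, SE 0.23), and Creld2 had 443, 383 and 478 CPM against 216, 267 and 300.5 CPM (-0.69, SE 0.19). Of 32 genes of ER translocation and glycosylation with an entry, 10 of which fell, 0 held these letters in this window. A match is a run of letters and not a binding site.

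Of 43 genes of ER translocation and N-glycosylation 14 fell and 1 rose (median -0.78), and 30 had all knockouts below all wild types. Among the falls were 6 genes of the oligosaccharyltransferase, the enzyme that attaches sugar chains to new proteins: Rpn1, Rpn2, Ddost, Magt1, Stt3a and Stt3b. Rpn1 had 524, 476 and 493 CPM in wild types and 153, 194 and 226 CPM in knockouts, and Ddost had 547, 606 and 546 CPM in wild types and 215, 196 and 254 CPM in knockouts. Rpn1, Rpn2 and Magt1 changed by -1.34, -1.26 and -1.34 (SE 0.19, 0.18 and 0.20). The 1 gene that rose was Srpr, the alpha subunit of the receptor for the signal recognition particle, with 149, 193 and 165 CPM in wild types and 292, 291 and 279 CPM in knockouts. Srprb, its partner that spans the membrane, fell, with 414, 476 and 500.4 CPM in wild types and 263, 252 and 219 CPM in knockouts, and the log2 changes were 0.81 (SE 0.18) and -0.88 (SE 0.18). Both were picked after their values were seen.

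In 2 other lists the genes that fell also encode membrane proteins. Of 37 genes of COPI and COPII coats and cargo receptors 7 fell and 1 rose (median -0.26). Those that fell encode membrane cargo receptors: Surf4 (-1.10, SE 0.17), Lman1 (-1.21, SE 0.22), Lman2 (-1.06, SE 0.18), the KDEL receptor gene Kdelr2 (-1.24, SE 0.21) and 3 genes of p24 proteins, Tmed2, Tmed7 and Tmed10. The gene that rose, Sec13, encodes a soluble coat subunit and had 148, 174 and 168 CPM against 306, 226 and 325 CPM (0.86, SE 0.22). Tmed2, Tmed7, Tmed10 and Sec13 were named after their values were seen. In the whole coat list 8 genes were higher and 16 lower at an unadjusted edgeR p under 0.05, and DESeq2 called 6 higher and 11 lower. Surf4 overlaps Surf2, whose counts came to 18.0% of its own. Of 39 genes of nucleoporins and the nuclear lamina 4 fell, and each of these encodes a protein of the nuclear membrane: the lamin B receptor gene Lbr (-1.37, SE 0.20), Sun1 (-1.24, SE 0.24), Lemd3 (-1.32, SE 0.30) and Ndc1 (-1.03, SE 0.21). The median of that list was -0.06. Before adjustment 7 of its genes were higher and 10 lower at an edgeR p under 0.05, and DESeq2 called 4 higher and 8 lower. Of 35 genes of cholesterol and fatty acid synthesis 8 fell and 2 rose (median -0.80). Ebp, a sterol isomerase, had 1203, 1015 and 1447 CPM against 485, 647 and 449.5 CPM (-1.18, SE 0.19). The 2 that rose were picked after their values were seen. They were Fdps, a prenyl synthase with 171, 269.8 and 232 CPM against 418, 444 and 543 CPM (1.11, SE 0.21), and Fdft1, the squalene synthase with 143, 199 and 188 CPM against 313, 324 and 328 CPM (0.91, SE 0.19).

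Lysosomal genes fell in 21 of 41 cases (median -1.03), with 30 below in every knockout. Hexa, the alpha subunit of the hexosaminidase that degrades gangliosides, had 451, 432 and 449 CPM in wild types and 162, 139 and 167 CPM in knockouts. The 3 embryos of each genotype were nearly alike, and Hexa changed by -1.46 (SE 0.19). Smpd1, the acid sphingomyelinase, had 691, 551 and 1023 CPM against 194, 225 and 248 CPM (-1.73, SE 0.25), and Grn, progranulin, had 1039, 1272 and 1049.9 CPM against 477, 482 and 502 CPM (-1.15, SE 0.16). Knockout 3, the mildest knockout in the junction lists, was the lowest in this list, with per-embryo medians of 0.39, 0.70 and 0.51 against -0.50, -0.61 and -0.40. Of 33 Golgi glycosyltransferase genes 5 fell (median -1.15). In all 5 lists of ER, coat, Golgi and lysosomal genes together 63 of 181 entries fell and 2 rose by edgeR. Before adjustment 116 were lower and 9 higher by p under 0.05, and DESeq2 called 98 lower and 7 higher. The shares of all genes were 3.21% for falls, 12.2% lower before adjustment and 7.27% lower by DESeq2.

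The 10 falls with the smallest p also included genes in no list. Spint1, a membrane-bound serine protease inhibitor, had 414, 240.0 and 306 CPM in wild types and 66.6, 107 and 88.6 CPM in knockouts. Sgpl1, the ER lyase that degrades sphingosine 1-phosphate, had 200.5, 133 and 184 CPM in wild types and 26.4, 55.1 and 36.8 CPM in knockouts. Both had an adjusted p of 0.012, with log2 changes of -1.84 (SE 0.24) and -2.11 (SE 0.28). Arl6ip1, which shapes ER tubules, changed by -1.45 (SE 0.18).

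**Figure D3:**
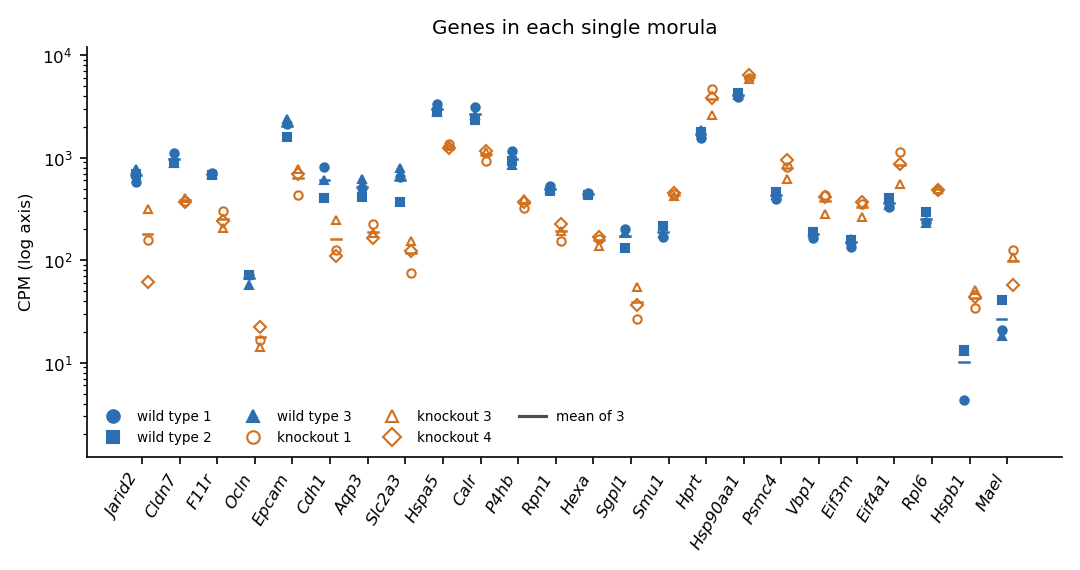
CPM of 24 genes in each embryo on a log axis, wild types filled and knockouts open, with the mean of 3 as a short line. Jarid2 stands first, genes from Cldn7 to Sgpl1 lie lower in every knockout and genes from Smu1 to Mael lie higher in every knockout.

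All coding genes were then divided by whether their longest protein held a hydrophobic segment, a stretch of 19 residues with a mean Kyte-Doolittle hydropathy of at least 1.6, as membrane spans and signal peptides have. This class was chosen with earlier results of these data known. Its counts and medians are therefore a description and no independent support for the lists above. Of 3881 genes with a segment 385 fell and 14 rose (median -0.49), and of 8050 without one 53 fell and 143 rose (median 0.14). The median was -0.60 in 664 genes with 1 segment starting within the first 40 residues, as a signal peptide does, with 74 falls and 3 rises. It was -0.14 in 1457 genes with 1 later segment (48 falls, 9 rises), -0.64 in 1271 genes with 2 to 5 segments (174 and 2) and -0.95 in 489 genes with 6 or more (89 and 0; DESeq2 166 and 0). In each embryo the median deviation of genes with a segment minus that of genes without one was 0.35, 0.21 and 0.25 in wild types and -0.31, -0.18 and -0.32 in knockouts, so the 2 genotypes did not overlap. An exact permutation test of 3 against 3 cannot give a p under 0.1, and none is given.

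Transcript length moved with the change as well. In 4 equal groups of genes by the length of the longest coding transcript, a division chosen after the values were seen, the median of genes without a segment was 0.41, 0.26, 0.02 and -0.29 from the shortest group (296 to 1783 bases) to the longest (4295 to 123179 bases). The median of genes with a segment was -0.25, -0.47, -0.53 and -0.62, below that of the other class in each group. Among the longest transcripts without a segment 25 genes fell and 8 rose, and among the shortest 7 fell and 83 rose. What part length has in the results for single genes and lists was not tested.

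**Figure D4:**
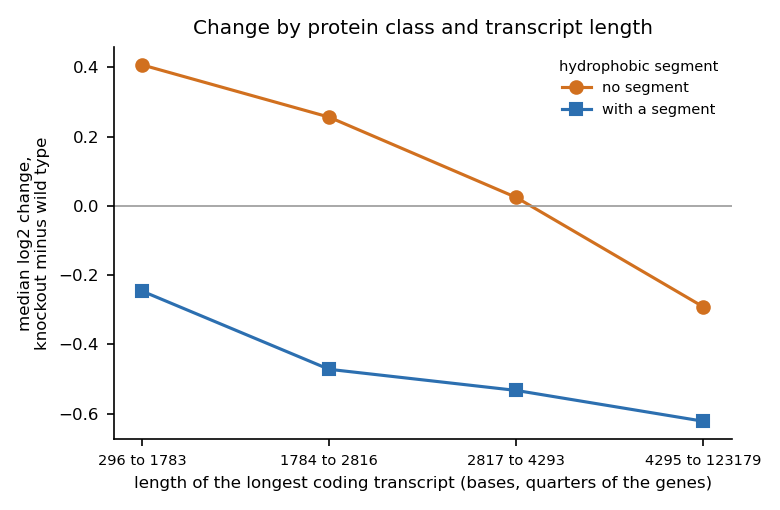
Median log2 change (knockout minus wild type) of coding genes in 4 groups by transcript length, for proteins with and without a hydrophobic segment. Both lines go down with length, from 0.41 to -0.29 without a segment and from -0.25 to -0.62 with one, and the line with a segment is the lower in each group.

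Many of the genes that rose belong to the cytosolic machinery that makes, folds and degrades proteins. The proteasome, which degrades ubiquitin-tagged proteins, had 11 of 37 subunit genes higher, 29 with all knockouts above all wild types and a median of 0.64. Psmc4, an ATPase subunit of the base, had 394, 461 and 431 CPM in wild types and 810.4, 622 and 939.7 CPM in knockouts (0.94, SE 0.21). Psma1 and Psmb6, of the core, had 519, 675 and 548 CPM against 1081, 849 and 1204 CPM and 937, 893 and 991 CPM against 1225, 1456 and 1549 CPM. The lid subunit gene Psmd13 changed by 1.06 (SE 0.24). The per-embryo medians of the list were -0.43, -0.28 and -0.20 in wild types against 0.32, 0.14 and 0.48.

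The CCT chaperonin, which folds actin and tubulin, and its helper prefoldin had 5 of 14 genes higher (median 0.62), and 11 had all knockouts above all wild types. The CCT subunit gene Cct5 had 486, 590.4 and 639 CPM in wild types and 1115, 777 and 1212 CPM in knockouts (0.91, SE 0.22), and the prefoldin subunit gene Vbp1 had 165, 189.9 and 190.4 CPM in wild types and 435, 284 and 413 CPM in knockouts (1.12, SE 0.23). Tcp1 changed by 1.22 (SE 0.26), with the counts of the overlapping Mrpl18 at 91.4% of its own. The chaperonin's client Actg1, cytoplasmic gamma actin, had 114, 230.1 and 198 CPM in wild types and 438, 344 and 669.8 CPM in knockouts and also rose (1.48, SE 0.31), whereas the actin crosslinker gene Actn4 fell (-0.75, SE 0.17).

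Of 31 cytosolic heat shock genes 7 rose (median 0.59). Hspa8, the constitutive Hsc70, had 1734, 1270.2 and 1951 CPM in wild types and 4119, 3304 and 2299 CPM in knockouts (1.02, SE 0.24), and Hsp90aa1 had 3919, 4251 and 4096 CPM in wild types and 5981, 5874 and 6394 CPM in knockouts (0.62, SE 0.14). Hspb1, a small heat shock protein, was low in wild types and had 4.32, 13.3 and 12.9 CPM in wild types and 34.2, 51.4 and 44.2 CPM in knockouts (2.11, SE 0.42). The Hsp90 co-chaperone gene Cdc37 had 98.2, 142 and 127 CPM against 222, 215 and 227 CPM (0.91, SE 0.21). In the same embryos Hsp90 and Hsp70 genes of the cytosol were higher while Hsp90b1 and Hspa5, their counterparts in the ER, were lower. The heat shock element, searched on both strands as TTC, GAA and TTC with gaps of 2 bases in the same promoters, stood in 179 of 27025 genes (0.662%) and in 3 of 24 genes of the list with an entry, 0 of 4 that rose among them.

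Of 45 translation factor genes 10 rose (median 0.53), and 22 had all knockouts above all wild types. Eif3m and Eif3g, subunits of the factor that recruits the small ribosomal subunit, had 134, 159 and 160.1 CPM against 351, 264 and 367 CPM and 321, 398 and 400.0 CPM against 741, 675 and 769 CPM. They changed by 1.17 (SE 0.22) and 1.02 (SE 0.18). Eif4a1, the RNA helicase of the cap-binding complex, had 329, 405 and 344 CPM in wild types and 1146, 559 and 865 CPM in knockouts, and knockout 3 was the lowest of the knockouts (1.33, SE 0.27). Of 78 ribosomal protein genes 10 rose (median 0.30), with Rpl6 at 237, 296 and 232 CPM against 486, 498 and 487 CPM, and these can share reads with processed pseudogenes. Of 20 cytosolic aminoacyl-tRNA synthetase genes 0 passed in edgeR (8 higher and 3 lower before adjustment; DESeq2 7 and 0; median 0.34), and of 43 nucleolar ribosome biogenesis genes 0 passed (12 and 2; DESeq2 11 and 0; median 0.26). In the 7 lists of cytosolic and nucleolar protein synthesis, folding and proteasome genes together 43 of 268 entries rose and 0 fell by edgeR. Before adjustment 132 were higher and 11 lower at p under 0.05, and DESeq2 called 110 higher and 2 lower. The shares of all genes were 1.16% for rises, 10.4% higher before adjustment and 6.88% higher by DESeq2.

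**Figure D5:**
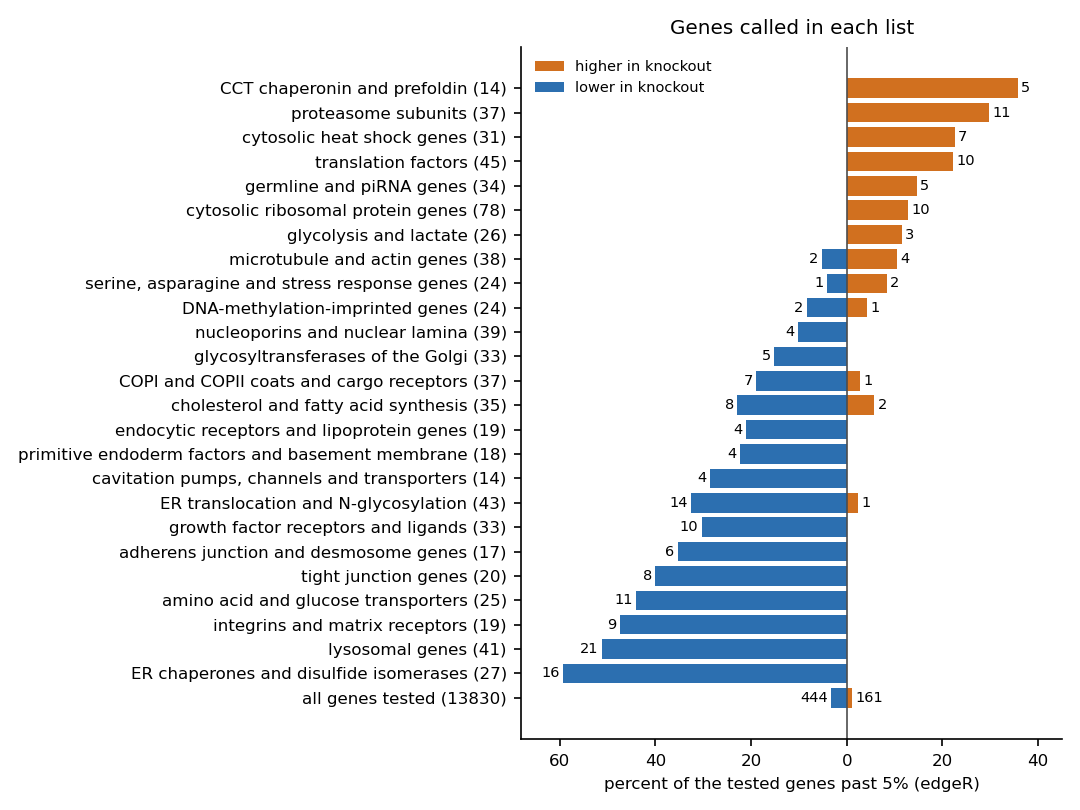
Percent of each list's tested genes past 5% by edgeR, higher in knockouts to the right and lower to the left, for lists with at least 3 calls; figures at the bars are numbers of genes and brackets give the genes tested. The ER chaperones (16 of 27) and lysosomal genes (21 of 41) reach furthest to the left, CCT and prefoldin (5 of 14) and the proteasome (11 of 37) furthest to the right, beside 161 higher and 444 lower among all genes.

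Mitochondrial lists had few calls in edgeR. Of 74 mitochondrial ribosomal protein genes 1 rose, Mrpl46 (0.84, SE 0.21), while 44 had all knockouts above all wild types (median 0.45). Of 39 genes of the tricarboxylic acid cycle and mitochondrial import 2 rose (median 0.42), Idh3g, a subunit of isocitrate dehydrogenase (1.06, SE 0.25), and Slc25a5, the ADP/ATP carrier with 593, 739 and 659 CPM against 1277, 984 and 1240.4 CPM (0.87, SE 0.19). Of 62 nuclear genes of the respiratory chain 1 rose (median 0.01), with 14 above and 11 below in every knockout and 32 positive against 30 negative changes. At an unadjusted edgeR p under 0.05, 31 mitochondrial ribosomal genes were higher and 0 lower (41.9%, against 22.6% of all genes). The counts were 20 and 1 in the tricarboxylic acid list (53.8%) and 13 and 5 in the respiratory chain list (29%). DESeq2 called 24 and 0, 11 and 0, and 10 and 3 in these lists. Of 26 glycolysis genes 3 rose (median 0.32), among them Ldha, lactate dehydrogenase A, with 15.8, 18.4 and 13.7 CPM in wild types and 54.9, 34.6 and 48.3 CPM in knockouts (1.59, SE 0.31). Of 24 serine, asparagine and stress response genes 2 rose and 1 fell (median 0.43). Asns and Psat1, which make asparagine and serine, rose by 1.71 (SE 0.36) and 1.19 (SE 0.23), and Slc3a2, the heavy chain of amino acid transporters of the plasma membrane, changed by -1.05 (SE 0.21).

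Among single genes in no list, Smu1, a splicing factor gene, had the smallest p of the rises other than genes of the X chromosome, with 167, 216 and 185 CPM in wild types and 439, 421 and 449.6 CPM in knockouts (1.26, SE 0.18). The 3 embryos within each genotype were close together. Hprt, the X-linked purine salvage enzyme gene, had 1539.6, 1765 and 1855 CPM in wild types and 4713, 2581 and 3833 CPM in knockouts, with knockout 3 the lowest of the knockouts (1.18, SE 0.24). The histone variant gene H3f3b had 838, 1067 and 1062 CPM against 1598, 1520.2 and 1673 CPM (0.74, SE 0.17), and Tyms, thymidylate synthase, had 216, 294 and 233 CPM against 590.3, 421 and 493 CPM (1.08, SE 0.22). Of 44 replication genes Tyms alone passed (2.27%), and of 47 mitosis genes Aurka rose and Mki67 fell (4.26%), beside 4.37% of all genes. These numbers of calls by themselves show nothing particular to the lists. In the replication list (median 0.40) 12 lay above in every knockout, beside 12.6% of all genes. Before adjustment 15 replication genes were higher and 1 lower at an edgeR p under 0.05 (36.4%, against 22.6% of all genes). In the mitosis list 14 were higher and 2 lower (34%). Aurka overlaps Cstf1, whose counts came to 21.5% of its own. Of 34 germline and piRNA pathway genes 5 rose (median 0.65), among them Mael with 21.0, 41.2 and 18.3 CPM against 126, 108 and 56.9 CPM and Tdrd12 with 6.54, 11.1 and 17.3 CPM against 47.8, 48.1 and 25.7 CPM. Malat1, a nuclear long noncoding RNA, fell by 0.72 (SE 0.17), with 11586, 13094 and 12833 CPM in wild types and 5628, 10103 and 6624 CPM in knockouts.

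The pluripotency, trophectoderm, and polarity and Hippo lists gave no calls in edgeR, while the primitive endoderm list did. Among 24 pluripotency and inner cell mass factors, 18 trophectoderm factors and keratins, and 32 polarity and Hippo genes, 0 of 74 entries passed in edgeR. With no adjustment of p, 6 were higher and 6 lower at 0.05 (16.2%, against 22.6% of all genes), and DESeq2 called 6 higher and 2 lower. Cdx2, which specifies trophectoderm, had 29.5, 34.1 and 20.7 CPM in wild types and 40.7, 27.3 and 26.4 CPM in knockouts (0.23, SE 0.32), and the values of the groups overlapped. Nanog had 231, 246 and 364 CPM in wild types and 176, 323 and 251 CPM in knockouts (-0.14, SE 0.25) and Krt8 468, 474 and 456 CPM in wild types and 257, 534 and 448 CPM in knockouts (-0.15, SE 0.22), also with overlap. Sox2 was low in knockout 1 alone, with 57.4, 63.6 and 71.0 CPM in wild types and 6.22, 62.3 and 42.5 CPM in knockouts (-0.79, SE 0.56). Of 18 primitive endoderm and basement membrane genes 4 fell (median of the list -1.29), all of them matrix genes: Col4a1, Col4a2, Nid1 and Sparc. Nid1, which links laminin to collagen, had 123, 51.3 and 50.03 CPM against 14.9, 20.6 and 25.6 CPM (-1.83, SE 0.38). Col4a1 and Col4a2 are adjacent and overlap, so reads in the overlap cannot be told apart.

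In the chromatin lists the edgeR calls were few. Their shares were near or below the 4.37% of all genes in the PRC1, Polycomb target, trithorax and remodelling lists. These numbers of edgeR calls by themselves show nothing particular to the lists. Among 25 PRC1 subunits edgeR called 0 (1 higher and 0 lower by p under 0.05 before adjustment; DESeq2 1 and 0), and their median was -0.12. Among 21 developmental transcription factors under Polycomb it called 0 (0 higher and 2 lower unadjusted; DESeq2 0 and 0; median -0.34). Of 26 trithorax and H3K27 demethylase genes 1 fell, Kmt2c, a methyltransferase for lysine 4 of histone H3, with 445, 368 and 461 CPM in wild types and 146, 263 and 158 CPM in knockouts (-1.15, SE 0.22). In that list 10 genes lay below in every knockout (median -0.60). Before adjustment 13 were lower and 1 higher at an edgeR p under 0.05 (53.8%, against 22.6% of all genes), and DESeq2 called 6 lower and 1 higher. The related Kmt2a had 71.3, 28.1 and 32.7 CPM in wild types and 1.61, 19.8 and 8.85 CPM in knockouts without passing (-2.13, SE 0.67). Of 35 chromatin remodelling genes Chd8 alone fell, with 79.0, 52.9 and 54.5 CPM against 20.5, 36.4 and 22.7 CPM (-1.20, SE 0.29). The median of that list was -0.41, with 8 lower and 1 higher before adjustment (25.7%) and 5 lower and 1 higher by DESeq2. Xist had 558, 415 and 688 CPM in wild types and 262, 389.8 and 179 CPM in knockouts and did not pass (-0.98, SE 0.27, adjusted p = 0.0676). Igf2r, 1 of 24 genes with DNA methylation imprints, fell, with 297, 174 and 177 CPM against 62.4, 73.2 and 58.3 CPM (-1.70, SE 0.25), as did H13, and Fkbp6 rose. H13 overlaps Mcts2, whose counts came to 70.1% of its own.

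A few genes were nearly absent from 1 genotype, and such a gene can pass the expression filter through the other genotype alone. St6galnac4, a sialyltransferase gene (chromosome 2, 32587078 to 32599696), had 126, 167 and 129 CPM in wild types and 0, 0.107 and 1.05 CPM in knockouts. That is 7039 counts in wild types against 0, 2 and 19 in knockouts, a ratio of 369 (95% interval 241 to 597, exact binomial, counting error only). It was the single call that survived leaving out any 1 embryo. The next gene, St6galnac6, starts 12 bases beyond its end and had 13.1, 13.3 and 8.80 CPM in wild types and 0.500, 0.642 and 1.66 CPM in knockouts (-3.59, SE 0.64, adjusted p = 0.0189). Among the 15 tested neighbours within 200 kb of St6galnac4 it was the 1 called, and their median change was -0.04. Reads running from the first gene into the second were not tested.

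On the X chromosome, Pdk3, a kinase that inhibits pyruvate dehydrogenase (93764616 to 93832150), had 0, 0.171 and 0 CPM in wild types and 15.5, 6.36 and 8.19 CPM in knockouts. Its 3 counts in wild types all came from wild-type 2, against 547 in knockouts, a ratio of 166 (95% interval 56.4 to 805, exact binomial, counting error only). That interval leaves out the spread between embryos, and Pdk3 passed the expression filter through the knockouts alone. None of its 4 tested neighbours within 200 kb was called by edgeR, and their median change was 0.34. Tceal8 and Bex1, of a cluster of small X-linked genes (136168984 to 136172251 and 136213972 to 136215513), had 1.21, 2.05 and 0.288 CPM against 63.4, 40.2 and 13.3 CPM and 7.48, 7.47 and 8.40 CPM against 53.01, 20.2 and 22.8 CPM. They rose by 5.11 (SE 0.74) and 2.12 (SE 0.45), and Bex4 of the same cluster had 1.89, 1.37 and 1.44 CPM in wild types and 17.0, 6.90 and 3.10 CPM in knockouts without passing (adjusted p = 0.0646). In all 3 of these genes knockout 1 was the highest of the knockouts.

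Other lists had few or no calls. Of 25 genes of the 2-cell stage 9 were tested, and a low gene can pass the expression filter through 1 genotype alone. In edgeR 0 of these 9 passed, with 7 above in every knockout and a median of 1.97 (6 higher and 0 lower by p under 0.05 before adjustment; DESeq2 4 and 0). Of 38 p53 targets and apoptosis genes 0 passed (7 higher and 2 lower unadjusted, 23.7% against 22.6% of all genes; DESeq2 5 and 0; median 0.42). Of 32 thiol and oxidative stress genes 1 fell, Prdx4, the peroxiredoxin of the ER (-1.05, SE 0.19), while the cytosolic Prdx1 had 474, 654 and 836 CPM against 904, 1079 and 1299 CPM without passing (0.78, SE 0.23). Of 8 protein arginine methyltransferase genes Prmt1 rose, with 16.3, 38.6 and 30.8 CPM in wild types and 237, 52.0 and 91.1 CPM in knockouts (2.24, SE 0.54).

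In the pooled morulae, which share no library with the single embryos, 0 genes passed 5% by edgeR among 16259 tested (1073 at an unadjusted p under 0.05). The 444 genes that fell in single embryos had a median of -1.28 in them and -0.13 in the pools, and the 161 that rose had 1.04 and -0.11. Jarid2 itself changed by -1.92 in single embryos and -1.55 in the pools. List medians in single embryos and pools were -1.07 and -0.22 for ER chaperones, -1.03 and -0.27 for lysosomal genes, -1.11 and -0.07 for tight junction genes, and 0.64 and -0.18 for the proteasome. St6galnac4 changed by -0.27 in the pools and Pdk3 by -0.19. The difference between the knockout effects in single embryos and pools, fitted over all 10 libraries, passed for 1 of 15878 genes (0.0063%), St6galnac4 (adjusted p = 0.00889), and for 544 (3.43%) by DESeq2. That difference had an unadjusted p under 0.05 in 532 of the 605 genes called in single embryos, which were chosen by 1 side of it, and in 14.6% of all genes. The sets differ in embryos per library, in sequencing depth, in the sex given (female for single embryos, none for pools) and in the label of the reference group (wild type or control), which cannot be told apart. This also holds for the X-linked Pdk3 and Tceal8. Bex1, also X-linked, was higher in the pools too (1.25, SE 0.32), without passing there. Its difference between single embryos and pools was 0.88 (SE 0.64, edgeR adjusted p = 0.563).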

How the data were processed

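Each library's reads had been turned into gene counts by the authors, and the deposited table of counts per gene was used. Per the submitters' processing notes, fastp 0.21.0, STAR 2.7.6a, RSEM 1.3.1 and the build mm10 were used. The annotation, the strand setting and the rounding of counts are not stated in the labels or file headers. Of 35976 genes in the table, 33479 (93.06%) matched RefSeq GRCm38.p6 by symbol, and 27 rows bear names in the form of dates. CPM is counts divided by the library total.

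Groups came from the labels. The 6 single-embryo libraries were fitted with edgeR 4.0.16 in R 4.3.3 (filterByExpr, TMM scaling, quasi-likelihood F test, Benjamini-Hochberg adjustment over all genes tested). DESeq2 1.42.0, other scalings, filters, a replicate block and leaving out each embryo were alternatives. The members and the 51 gene lists were chosen with earlier results of these data known, and lists are described by counts and medians without a test. Genes were named by a rule: per direction the 10 with the smallest p, the 8 with the largest change at a mean of at least 10 CPM and the 8 with the highest mean CPM, up to 4 per list with a call, and fixed genes such as Jarid2. Others are said to have been picked afterwards, or are listed as list members.

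Hydrophobic segments came from GENCODE M21 coding sequences translated here, in place of the RefSeq proteins foreseen. Simulated counts (13181 genes tested) were drawn at random from each gene's mean level and fitted spread in these embryos. In them 100 genes were changed 2-fold and 100 were changed 4-fold. The fit recovered 13% of 2-fold and 52% of 4-fold changes, with 3 false among 68 calls.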

Additional observations from a re-analysis of the deposited data

How the results depend on the processing

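The number of calls was 605 as reported, 1957 with DESeq2, 1715 with no filter on low counts, 1243 among genes averaging 10 CPM or more and 1667 in a fit of all 10 libraries. Genes higher in knockouts numbered 161 as reported, 301 with upper-quartile scaling, 951 with DESeq2, 728 with no filter, 445 at 10 CPM and 791 with all 10 libraries. Genes lower numbered 444 as reported, 1006 with DESeq2, 987 with no filter, 798 at 10 CPM and 876 with all 10 libraries. The cause of these moves was not tested. Leaving out 1 embryo gave 1 to 1316 calls, 0 to 602 higher and 1 to 714 lower. With the replicate number as a block, 187 genes passed, 57 higher and 130 lower, and 116 of them were among the 605. Only numbers 1 and 3 are shared by the genotypes. The deviations of same-numbered embryos correlated at -0.01 and -0.08, and those of other-numbered embryos at -0.16 to 0.16. So few values cannot show whether same-numbered embryos shared more than a number, such as a litter.

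Jarid2 changed by -2.53 to -1.52 when 1 embryo was left out and lost its call in 4 of these 6 fits. Of 144 named genes that passed, 0 changed direction under any alternative. They lost the call in 98 cases under the block, in 107 without knockout 1, 143 without knockout 4, 119 without wild-type 1, 38 without wild-type 2 and 143 without wild-type 3. Among named genes that did not pass, 5 changed sign with 1 embryo left out: Cdx2 ranged from -0.0573 (without knockout 1) to 0.374, Ezh2 from -0.0112 (without wild-type 2) to 0.285, Gata3 from -0.367 to 0.148 (without knockout 1), Krt8 from -0.309 to 0.0728 (without knockout 1) and Nanog from -0.301 to 0.119 (without wild-type 3; 0.0212 without knockout 1). Of 765 comparisons of list medians 57 moved, in 28 lists. The median of genes with a hydrophobic segment minus that of genes without one was -0.63. It was -0.72 with a hydropathy threshold of 1.8, -0.48 with 1.4, -0.72 at 10 CPM, and -0.69 to -0.55 with 1 embryo left out. The difference between single embryos and pools passed for 1 gene, for 544 with DESeq2, and for 0 to 2 with 1 single embryo left out. In a simulation with 100 genes changed 2-fold and 100 changed 4-fold, 13% of the 2-fold changes were recovered, so changes of that size can be missed. Far fewer genes were changed there than the 3131 with an unadjusted edgeR p under 0.05 in the embryos. Adjusted p-values depend on how many genes change, so the share recovered in the real comparison was not measured.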
